A study of Mus musculus with 15 samples.

Results

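The genes described here are 10 of the 56859 in a count table of mouse colon RNA, chosen by name as the NRF2 transcription factor gene Nfe2l2, well-known targets of NRF2, and enzymes of redox defence: Nqo1, Hmox1, Gclc, Gclm, Txnrd1, Srxn1, Slc7a11, Gpx2 and Txn1. All 10 passed the filter on low counts, which left 18038 genes for testing. The table holds 15 libraries in 5 groups of 3, prepared from total RNA of colon tissue of male C57BL/6J mice. The model is colitis-associated colon tumorigenesis: azoxymethane (AOM), a colon carcinogen, was injected once, and dextran sulfate sodium (DSS), a detergent-like polymer that injures the colon lining, was given in drinking water in repeated cycles. Mice were 6 to 10 weeks old, AOM was given at 10 mg/kg on day 0, and 2.5% DSS ran from day 7 to 11, again from 28 to 32, and from 49 to 53. The compound APX3330 (E3330) is an inhibitor of the redox function of APE1/Ref-1, the protein encoded by Apex1. Its dose was 25 mg/kg into the peritoneum during each DSS cycle, with saline in its place in the other AOM/DSS mice.

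The 3 saline groups are named here by the day in their labels: saline D27, saline D48 and saline D100. Their titles carry no day and name the saline D48 group as cycle 1 and the saline D100 group as cycle 2, and how these cycles map to the 3 DSS cycles is not settled here. The APX3330 group carries no day of its own. Its title is built like that of saline D27, with neither a cycle nor a day, so it was set against each saline group in turn and no pair of groups is known to share a day. The Control group is labelled wild type with no agent, while the shared protocol describes AOM injection of all mice, so the treatment of the Control mice is not settled here. The labels do not say that the 3 libraries of a group came from separate mice, and p-values measure the spread between libraries only. In whole tissue, fewer cells of a type and less RNA per cell cannot be told apart.

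NRF2 is a transcription factor that is held at low levels by KEAP1, which passes it to a CUL3 ubiquitin ligase for degradation. Electrophiles and oxidants modify KEAP1, NRF2 accumulates, pairs with a small MAF protein and binds antioxidant response elements near its target genes. The targets make glutathione and thioredoxin, reduce quinones and lipid peroxides, and break down heme. In the colon these enzymes protect an epithelium that faces oxidants from immune cells and from luminal bacteria, and in tumours NRF2 activity can also protect the tumour cells.

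Promoter sequences are shown to place the letters of the antioxidant response element core in members whose RNA differed between groups and in members whose RNA did not. RefSeq windows of 300 bases, which start 250 bases before the annotated start, were matched for 8 of the 10 genes on GRCm38.p6, with 3 alternative starts for Txnrd1 and 10 windows in all. The Hmox1 and Gclc windows are not used here. The core TGACNNNGC, searched on both strands, was present in windows of 4 members, and the AP-1 site TGANTCA, bound by FOS and JUN proteins, was present in 1. Of all 32851 promoter windows of this length, 12.4% held the first motif and 7.81% the second. Capitals mark the matches in the windows below, each written 5' to 3' along the gene.
Nfe2l2, minus strand, chr2:75704614-75704913: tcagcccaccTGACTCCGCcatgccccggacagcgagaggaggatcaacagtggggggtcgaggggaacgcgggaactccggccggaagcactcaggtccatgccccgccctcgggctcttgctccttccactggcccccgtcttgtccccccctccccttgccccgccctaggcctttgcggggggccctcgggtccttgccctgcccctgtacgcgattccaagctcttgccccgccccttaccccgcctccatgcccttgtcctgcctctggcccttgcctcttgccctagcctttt
Gclm, plus strand, chr3:122245307-122245606: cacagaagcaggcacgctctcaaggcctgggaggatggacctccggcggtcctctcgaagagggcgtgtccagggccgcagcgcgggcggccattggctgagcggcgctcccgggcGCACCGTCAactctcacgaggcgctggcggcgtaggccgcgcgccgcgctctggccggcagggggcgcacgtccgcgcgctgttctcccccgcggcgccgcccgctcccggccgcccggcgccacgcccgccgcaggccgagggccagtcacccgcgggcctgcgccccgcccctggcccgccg
Txnrd1, the second of its 3 starts, plus strand, chr10:82858956-82859255: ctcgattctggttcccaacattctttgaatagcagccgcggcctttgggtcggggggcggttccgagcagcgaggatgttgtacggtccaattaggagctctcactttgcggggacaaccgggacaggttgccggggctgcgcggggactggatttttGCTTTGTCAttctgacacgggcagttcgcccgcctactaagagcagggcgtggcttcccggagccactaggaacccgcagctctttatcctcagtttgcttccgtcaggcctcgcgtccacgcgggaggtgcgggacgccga
Srxn1, plus strand, chr2:152105274-152105573: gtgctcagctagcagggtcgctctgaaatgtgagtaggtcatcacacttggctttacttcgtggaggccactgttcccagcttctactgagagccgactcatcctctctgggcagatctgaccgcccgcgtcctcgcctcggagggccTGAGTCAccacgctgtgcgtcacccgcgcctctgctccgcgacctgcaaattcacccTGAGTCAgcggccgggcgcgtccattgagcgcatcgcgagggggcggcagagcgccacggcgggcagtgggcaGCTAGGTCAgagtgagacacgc

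In Nfe2l2 the core TGACTCCGC lies at position -240, counted from the start as position 0 and taken at the leftmost base of the match. In Gclm the match is on the other strand at position -134 and reads GCACCGTCA along the gene. In Txnrd1 it reads GCTTTGTCA at position -92, and in Srxn1 it reads GCTAGGTCA at position 28. Srxn1 also holds TGAGTCA at positions -102 and -45. Gclm and Nfe2l2 differed between groups and Txnrd1 and Srxn1 did not pass the test in any comparison, so the letters were found in members of both kinds. A match of letters is a description and not a bound site.

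Total counts ran from 13548661 to 17919613 per library. All 10 colon epithelium markers were detected in every group, with a summed level of 9092 to 12632 CPM, the count scaled to library size with a TMM factor. Some libraries stood apart. Control replicates 1 and 3 and saline D100 replicate 1 held squamous epithelium markers at a sum of 873, 409 and 830 CPM, against 0.88 to 96.1 CPM elsewhere. The same 2 Control libraries held skeletal muscle markers at 1637 and 733 CPM, against 7.70 to 30.6 CPM in the other 13, so the comparisons with Control rest in part on libraries with RNA of other tissues. The 6 exocrine pancreas markers summed to 30171 and 7380 CPM in saline D48 replicates 2 and 3, and to 0.06 to 8.44 CPM in the other 13 libraries. Calls lost without these libraries are given beside the results. APX3330 acts on the APE1 protein, and Apex1 RNA, at 3.31 to 8.06 CPM, passed the test in none of the 10 comparisons.

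Across the 5 groups 8 of the 10 genes passed the edgeR quasi-likelihood F test, where 37.3% of all tested genes passed. Gclm had the smallest adjusted p among them at 0.000107, followed by Gclc at 0.00104, Txn1 at 0.00224, Hmox1 at 0.00251, Slc7a11 at 0.00306, Gpx2 at 0.0128, Nqo1 at 0.0352 and Nfe2l2 at 0.0387. Txnrd1 (adjusted p = 0.484) and Srxn1 (0.280) did not pass. The genes did not follow 1 common course. Gclc, Gclm, Nqo1 and Nfe2l2 had their lowest group mean at saline D48, and Gclc, Gclm and Nfe2l2 their highest in the APX3330 group. Slc7a11, Gpx2 and Txn1 had their lowest mean in the Control group, and Hmox1 had its highest at saline D48. Leaving out the 3 libraries with squamous markers left 3 of the 8 genes past the F test.

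**Figure D1:**
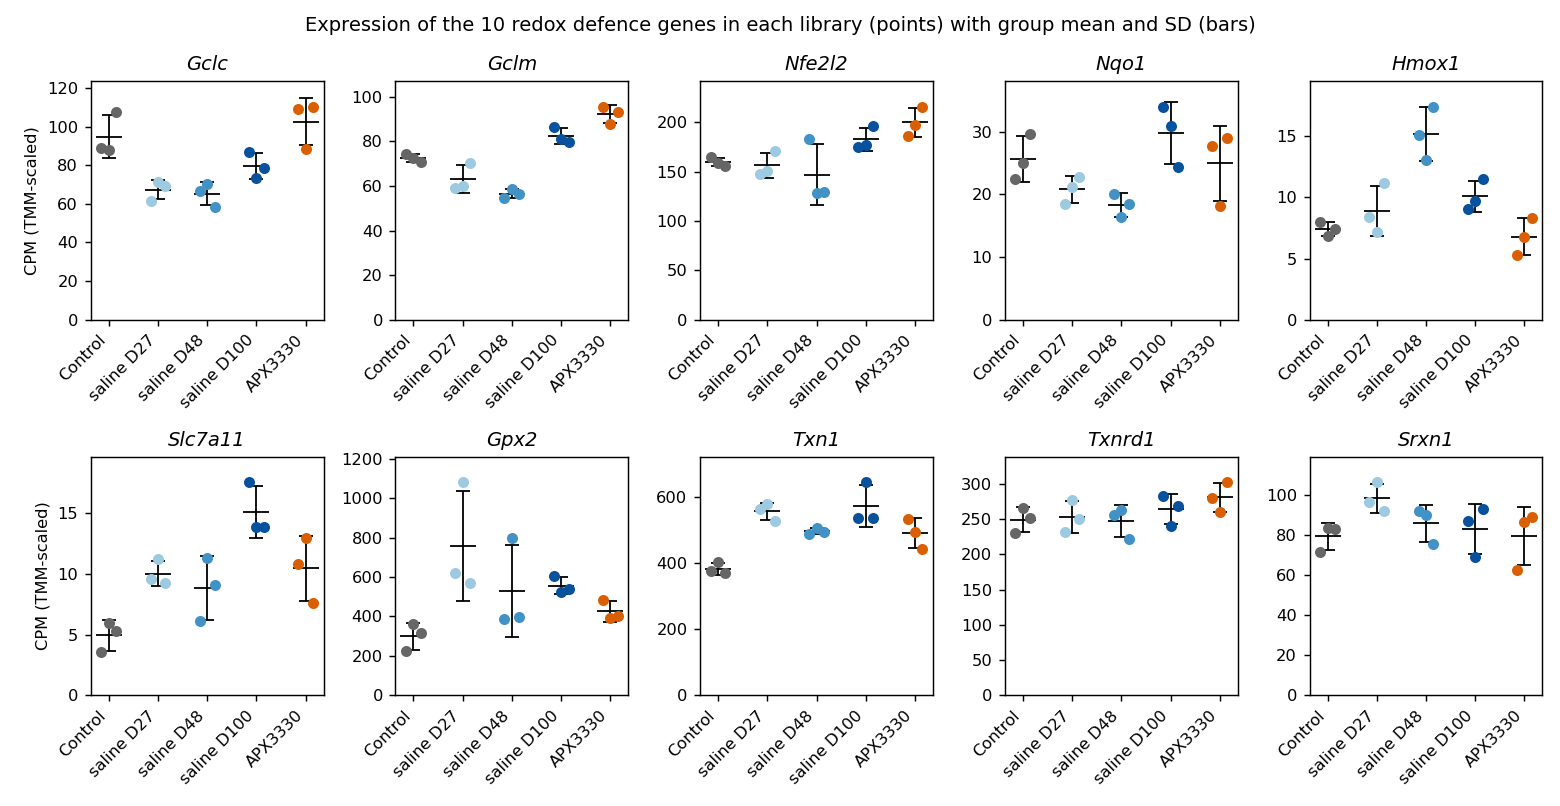
Level of each gene (vertical axes, TMM-scaled CPM, starting at 0) in the 5 groups (horizontal axes); points are single libraries, horizontal bars are group means and error bars are SD (n = 3). Gclc and Gclm dip at saline D27 and saline D48 and stand highest in APX3330, Slc7a11, Gpx2 and Txn1 stand lowest in Control, Hmox1 peaks at saline D48, and the Txnrd1 libraries all lie between 222 and 302 CPM.

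Per kilobase of exon, the levels spanned nearly 3 orders of magnitude. Txn1 averaged 476 CPM per kb over the 15 libraries, Gpx2 159, Nfe2l2 44.6, Txnrd1 36.6, Srxn1 30.3, Gclc 21.7, Nqo1 15.4, Gclm 11.7, Hmox1 5.52 and Slc7a11 0.709. The ranges over libraries of Txn1, of Gpx2 and of Slc7a11 did not overlap those of their neighbours in this order. The ranges of neighbours from Nfe2l2 down to Hmox1 overlapped. Lengths are unions of all annotated exons, so a gene with long or retained-intron isoforms, such as Slc7a11 at 13922 bases or Gpx2 at 3222, is scaled down more.

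Nfe2l2, on chromosome 2 (75675513 to 75704641, minus strand, GRCm38), encodes NRF2 itself, whose activity is set mainly by protein stability. Its level was 165, 158 and 156 CPM in Control replicates 1 to 3, 148, 151 and 171 at saline D27, and 183, 129 and 129 at saline D48. It was 175, 177 and 196 CPM at saline D100 and 186, 198 and 216 in the APX3330 group. The saline D48 group was thus split, with replicate 1 above every Control library and replicates 2 and 3 below every other library. Nfe2l2 was called higher in 1 of the 10 comparisons, APX3330 against saline D48, by 0.44 on the log2 scale (SE 0.122, adjusted p = 0.0189, edgeR), with no overlap between the groups. The 2 low saline D48 libraries are those with pancreatic markers. Without both of them the difference was 0.13 (adjusted p = 0.646). The call was also lost in a fit of the 2 groups alone (0.44, adjusted p = 0.0863), without saline D48 replicate 2 (0.34, adjusted p = 0.0878) or replicate 3 (0.36, 0.0919), and without APX3330 replicate 2 (0.45, 0.0507) or replicate 3 (0.39, 0.0708). Within groups, Nfe2l2 and the pancreatic sum correlated at Pearson r = -0.85 over the 15 libraries, which share the split in saline D48. With saline D48 replicate 1 left out instead, Nfe2l2 was called lower at saline D48 than in Control (-0.33, adjusted p = 0.0251) and higher at saline D100 than at saline D48 (0.51, 0.00772). APX3330 against saline D27, at 0.35 (SE 0.121, adjusted p = 0.0792), passed with DESeq2 (0.35, 0.0399) and limma-voom (0.39, 0.0237). The part of pancreatic RNA in the Nfe2l2 values was not tested beyond leaving these libraries out.

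The glutathione pathway held opposite courses. Gclc, the catalytic subunit of glutamate-cysteine ligase, makes the first and rate-limiting product of glutathione synthesis, and Gclm is the modifier subunit that makes this enzyme efficient. Slc7a11, also called xCT, is the transporter that brings in cystine and so supplies the cysteine. Both ligase subunits were lower after AOM/DSS with saline at day 48 than in Control and were higher in the APX3330 group than in the saline D27 and D48 groups. Slc7a11 was higher than Control in all 4 other groups.

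Gclc lies on chromosome 9 (77754535 to 77794485, plus strand). Its level was 88.7, 87.9 and 108 CPM in Control replicates 1 to 3, 61.6, 71.1 and 69.3 at saline D27, and 66.8, 70.0 and 58.5 at saline D48. It was 86.8, 73.4 and 78.4 CPM at saline D100 and 109, 88.5 and 110.3 in the APX3330 group. All 6 libraries of saline D27 and D48 lay below all 9 others. Against Control, Gclc fell by 0.49 on the log2 scale at saline D27 (SE 0.113, adjusted p = 0.00722) and by 0.54 at saline D48 (SE 0.113, adjusted p = 0.00257). At saline D100 the difference from Control was -0.25 (SE 0.113, adjusted p = 0.124), with groups that did not overlap. APX3330 against saline D27 gave 0.61 (SE 0.113, adjusted p = 0.00835) and against saline D48 0.66 (SE 0.113, adjusted p = 0.00134). The difference of APX3330 from Control was 0.11 (SE 0.112, adjusted p = 0.539) and from saline D100 0.37 (SE 0.113, adjusted p = 0.164).

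The lower Gclc at saline D27 and D48 was not called with the squamous libraries left out, which leaves 1 Control library, at -0.40 (adjusted p = 0.178) and -0.45 (0.0933). Without the pancreatic libraries, which leaves 1 saline D48 library, Gclc against Control was -0.50 (adjusted p = 0.0787) and APX3330 against saline D48 was 0.62 (0.0502). The call of APX3330 against saline D27 was kept in every alternative fit, but at 0.61 it is below a minimum difference of 1 on the log2 scale, which was also tried.

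Gclm, on chromosome 3 (122245557 to 122270732, plus strand), showed little spread within groups other than saline D27. The SD was 9.89% of the mean at saline D27 and 2.54% to 4.42% in the other groups. It stood at 74.3, 72.7 and 70.6 CPM in Control replicates 1 to 3, at 59.0, 60.0 and 70.3 at saline D27, and at 54.6, 58.5 and 56.4 at saline D48. At saline D100 it stood at 86.5, 81.0 and 79.6 CPM and in the APX3330 group at 95.7, 87.8 and 93.2. The groups did not overlap in the order saline D48, saline D27, Control, saline D100 and APX3330, although no single step between neighbours was called. Some gaps were small, at 58.5 against 59.0 CPM between saline D48 and D27 and 70.3 against 70.6 between saline D27 and Control. Counting error was 2.66% to 3.48% per library. The share of all genes with groups apart in this way was not computed. Gclm fell by 0.36 at saline D48 against Control (SE 0.0813, adjusted p = 0.00425). In the APX3330 group it was higher than Control by 0.35 (SE 0.0808, adjusted p = 0.0101), than saline D27 by 0.55 (SE 0.0810, adjusted p = 0.00320) and than saline D48 by 0.71 (SE 0.0813, adjusted p = 9.18e-05). Within the saline groups it was higher at day 100 than at day 27 by 0.38 (SE 0.0811, adjusted p = 0.0243) and than at day 48 by 0.54 (SE 0.0813, adjusted p = 0.000944).

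The differences of Gclm between APX3330 and saline D27, between APX3330 and saline D48, and between saline D100 and D48 were kept in every alternative fit, and all 3 are below a minimum difference of 1 on the log2 scale. The call of saline D100 against D27 was lost without saline D27 replicate 1 (0.34, adjusted p = 0.109) or replicate 2 (0.35, 0.104), and without saline D100 replicate 1 (0.35, 0.0778), replicate 2 (0.40, 0.0621) or replicate 3 (0.41, 0.0737). It was also lost with no filter on low counts (0.37, 0.0515), in a fit of the 2 groups (0.38, 0.0710) and without the squamous libraries (0.35, 0.148). Against Control, the saline D48 call was lost without the squamous libraries (-0.38, adjusted p = 0.0949) or the pancreatic ones (-0.41, 0.0673), and the APX3330 call without the squamous ones (0.34, 0.237). Gclm at saline D27 against Control, at -0.20 (adjusted p = 0.0960), passed only without saline D27 replicate 3 (-0.28, 0.0239) and with limma-voom (-0.25, 0.0202). The 5 plasma cell markers summed to 1541 to 1963 CPM in Control, 4384 to 7671 at saline D27, 6917 to 10948 at saline D48, 5566 to 7950 at saline D100 and 3036 to 4938 in the APX3330 group. Within groups, this sum and Gclm correlated at r = -0.82 over the 15 libraries, the largest in size among the marker lists. Over the libraries as a whole r was -0.39. Other lists also varied with Gclm. Within groups the enteric neuron and glia sum stood at 0.70 and the adipocyte sum at -0.59. Over the libraries as a whole the neutrophil sum stood at -0.81. The part of these cell types in the Gclm differences was not tested. Gclm shares 296 exon bases with the antisense gene Gm17494, which had 46 counts in all libraries together against 16620 for Gclm.

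Slc7a11, on chromosome 3 (49892526 to 50443614, minus strand), was the lowest of the genes per kilobase of exon, with 55 to 248 counts per library and a counting error of 6.35% to 13.5%. Its level was 3.54, 5.99 and 5.33 CPM in Control replicates 1 to 3, 9.59, 11.2 and 9.24 at saline D27, and 6.09, 11.3 and 9.12 at saline D48. It was 17.5, 13.8 and 13.8 CPM at saline D100 and 10.8, 12.9 and 7.64 in the APX3330 group. Every library of the other groups exceeded every Control library. The difference from Control was 1.02 at saline D27 (SE 0.258, adjusted p = 0.0125), 0.84 at saline D48 (SE 0.258, adjusted p = 0.0250), 1.61 at saline D100 (SE 0.258, adjusted p = 0.000481) and 1.08 with APX3330 (SE 0.258, adjusted p = 0.0114). In means this is a ratio of 2.02, 1.78, 3.04 and 2.11. APX3330 did not differ past the threshold from any saline group, with values of 0.06 against saline D27, 0.25 against saline D48 and -0.53 against saline D100. Saline D100 against D48, at 0.77, was just short of the threshold (SE 0.249, adjusted p = 0.0509), and it passed without saline D48 replicate 2 (0.97, 0.0326), with DESeq2 (0.77, 0.0194), with limma-voom (0.79, 0.0318) and with no filter on low counts (0.76, 0.0256).

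Control replicate 1 held the lowest Slc7a11. Without it the differences at saline D27 (0.83, adjusted p = 0.0610), saline D48 (0.65, 0.106) and APX3330 (0.89, 0.0574) were no longer called, while that at saline D100 was. The saline D27 call was also lost without saline D27 replicate 2 (0.93, adjusted p = 0.0566), and the APX3330 call without APX3330 replicate 2 (0.90, 0.0557). The saline D48 call was also lost in a fit of the 2 groups (0.83, 0.0674), without saline D48 replicate 2 (0.62, 0.112) or replicate 3 (0.81, 0.0635) and without the pancreatic libraries (0.30, 0.645). With the 3 squamous libraries left out the 4 differences from Control were 0.72, 0.54, 1.19 and 0.80, and none was called (adjusted p = 0.292, 0.376, 0.0934 and 0.298).

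Gpx2, on chromosome 12 (76792333 to 76795554, minus strand), encodes the glutathione peroxidase of the gut epithelium, which uses glutathione to reduce peroxides. Its level was 224, 359 and 315 CPM in Control replicates 1 to 3, 623, 1080.0 and 570.2 at saline D27, and 389, 799.5 and 398 at saline D48. It was 606, 522 and 541 CPM at saline D100 and 485, 392 and 400.0 in the APX3330 group. Control was lowest with no overlap, and saline D27 replicate 2 and saline D48 replicate 2 stood well above their groups. Against Control, Gpx2 was higher by 1.34 at saline D27 (SE 0.275, adjusted p = 0.00394), by 0.82 at saline D48 (SE 0.272, adjusted p = 0.0355) and by 0.89 at saline D100 (SE 0.273, adjusted p = 0.0282). In the APX3330 group the difference from Control was 0.51 (SE 0.271, adjusted p = 0.228), and it passed with no filter on low counts (0.51, 0.0104). APX3330 against saline D27 was -0.83 (SE 0.272, adjusted p = 0.0666), with groups that did not overlap. That difference passed the threshold without saline D27 replicate 3 (-1.0, adjusted p = 0.0452), in a fit of the 2 groups alone (-0.82, 0.0447) and with no filter on low counts (-0.83, 1.2e-05).

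The saline D48 call of Gpx2 was lost without saline D48 replicate 2 (0.39, adjusted p = 0.236), Control replicate 1 (0.65, 0.135) or Control replicate 3 (0.86, 0.0715), and without the pancreatic libraries (0.38, 0.481). It was also lost with DESeq2 (0.82, 0.0521) and in a fit of the 2 groups (0.81, 0.0667). The saline D100 call was lost without Control replicate 1 (0.72, 0.124) or replicate 3 (0.93, 0.0641), and without saline D100 replicate 1 (0.83, 0.0753), replicate 2 (0.94, 0.0555) or replicate 3 (0.91, 0.0646). Left without the squamous libraries, the differences at saline D27, D48 and D100 were 1.06, 0.54 and 0.55 (adjusted p = 0.182, 0.432 and 0.509). The pseudogene Gpx2-ps1 had 17 counts in all libraries together, against 116853 for Gpx2.

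Of the thioredoxin branch, Txn1 moved with Slc7a11 and Gpx2, and its partners Txnrd1 and Srxn1 did not pass any comparison. Txn1 encodes thioredoxin, a small protein that reduces disulfides in other proteins. It lies on chromosome 4 (57943373 to 57956411, minus strand). Its level was 378, 404 and 370.0 CPM in Control replicates 1 to 3, 566, 579 and 528 at saline D27, and 490.1, 507 and 493 at saline D48. It was 537, 645 and 538 CPM at saline D100 and 535, 494 and 444 in the APX3330 group. All 12 libraries outside Control were above all 3 Control libraries. The differences from Control were 0.54 at saline D27 (SE 0.0965, adjusted p = 0.00175), 0.37 at saline D48 (SE 0.0964, adjusted p = 0.00962), 0.58 at saline D100 (SE 0.0966, adjusted p = 0.000638) and 0.36 with APX3330 (SE 0.0964, adjusted p = 0.0216). APX3330 was called different from no saline group, with values of -0.18, -0.02 and -0.22 against saline D27, D48 and D100.

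The APX3330 call of Txn1 against Control was lost without Control replicate 1 (0.35, adjusted p = 0.0711) or replicate 3 (0.33, 0.0764), and without APX3330 replicate 1 (0.29, 0.0710) or replicate 2 (0.35, 0.0604). Without the squamous libraries the 4 differences from Control were 0.45, 0.28, 0.54 and 0.28, none called (adjusted p = 0.141, 0.282, 0.0804 and 0.414). Without the pancreatic ones the saline D48 difference was 0.36 (0.133). The pseudogene Txn-ps1 had 106 counts in all libraries together, against 114309 for Txn1.

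Txnrd1, on chromosome 10 (82833951 to 82897712, plus strand), encodes the cytosolic reductase that returns thioredoxin to its reduced form with NADPH. Its group means ran from 247 ± 22.4 CPM (SD, n = 3) at saline D48 to 281 ± 20.8 in the APX3330 group, a ratio of 1.14, with a range over all libraries of 222 to 302 CPM. The largest log2 difference was 0.18, APX3330 against saline D48 (SE 0.104, adjusted p = 0.233). Counting error was at most 1.67% per library. Srxn1, on chromosome 2 (152105516 to 152111376, plus strand), encodes sulfiredoxin, which repairs over-oxidised peroxiredoxins. Its means ran from 79.4 ± 6.73 CPM in Control to 98.4 ± 7.35 at saline D27, with a range over libraries of 62.7 to 106 CPM. Saline D27 did not overlap Control, at 0.31 (SE 0.138, adjusted p = 0.130), and the difference passed the threshold only in a fit of these 2 groups (0.31, 0.0426). APX3330 against saline D27 was -0.31 (SE 0.138, adjusted p = 0.167), also without overlap. Within groups, Srxn1 and the colon epithelium sum correlated at r = 0.87 and Srxn1 and the 4 endothelium markers at r = -0.82 over the 15 libraries. These were the largest in size among the marker lists. Over the libraries as a whole they were 0.66 and -0.51.

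Nqo1, on chromosome 8 (107388225 to 107403206, minus strand), encodes the quinone reductase that is often used to read out NRF2 activity. Its level was 22.4, 25.0 and 29.6 CPM in Control replicates 1 to 3, 18.5, 21.1 and 22.8 at saline D27, and 20.1, 16.3 and 18.5 at saline D48. It was 34.0, 30.9 and 24.4 CPM at saline D100 and 27.8, 18.1 and 29.0 in the APX3330 group, where replicate 2 lay below the other 2. Nqo1 was called in 1 comparison, higher at saline D100 than at saline D48 by 0.70 (SE 0.179, adjusted p = 0.0181). This was lost without saline D48 replicate 2 (0.62, adjusted p = 0.0630), saline D100 replicate 1 (0.60, 0.0702) or saline D100 replicate 2 (0.67, 0.0594), without the squamous libraries (0.60, 0.0911) and without the pancreatic ones (0.56, 0.279). Saline D48 against Control was -0.49 (SE 0.179, adjusted p = 0.0559), without overlap, and passed with DESeq2 (-0.49, 0.0430), with no filter on low counts (-0.48, 0.0281) and in a fit of the 2 groups (-0.49, 0.0384). APX3330 against saline D48 was 0.45 (SE 0.179, adjusted p = 0.0940), and it passed without APX3330 replicate 2 (0.63, 0.0235).

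Hmox1, on chromosome 8 (75093621 to 75100589, plus strand), encodes heme oxygenase 1, which breaks heme down to biliverdin, iron and carbon monoxide and is strongly expressed by macrophages that clear red cells. Its level was 7.98, 6.87 and 7.39 CPM in Control replicates 1 to 3, 8.36, 7.16 and 11.2 at saline D27, and 15.1, 13.1 and 17.4 at saline D48. It was 9.04, 9.68 and 11.5 CPM at saline D100 and 5.27, 6.73 and 8.31 in the APX3330 group. The 3 saline D48 libraries were the 3 highest of the 15. Hmox1 was higher at saline D48 than in Control by 1.03 (SE 0.207, adjusted p = 0.00192), a ratio of means of 2.05. In the APX3330 group it was lower than at saline D48, by a log2 difference of -1.17 (SE 0.208, adjusted p = 0.00161), and this call was kept under every alternative, the minimum difference of 1 included. The saline D48 call against Control was lost only without the squamous libraries (1.13, adjusted p = 0.0646). Saline D48 against D27, at 0.77 (SE 0.204, adjusted p = 0.0777), and saline D100 against D48, at -0.59 (SE 0.204, adjusted p = 0.0643), did not overlap and were short of the threshold, and DESeq2 called both (adjusted p = 0.0150 and 0.0369).

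Macrophage markers had their highest sum at saline D48, as Hmox1 did. The 9 markers, all detected in every group, summed to 224 to 323 CPM in Control, 396 to 535 at saline D27, 616 to 685 at saline D48, 449 to 613 at saline D100 and 306 to 386 in the APX3330 group. Of the 9, 8 were called higher at saline D48 against Control and 6 lower in APX3330 against saline D48. Of all tested genes 14.3% were higher in the former comparison and 10.3% lower in the latter. In APX3330 against Control 2 were called higher, while Hmox1 differed by -0.13. The macrophage sum and Hmox1 correlated at r = 0.74 over the 15 libraries and at -0.11 within groups. Of the 6 neutrophil markers 5 were tested, of which 4 were called higher at saline D48 against Control (median log2 difference 3.75) and 5 lower in APX3330 against saline D48 (median -5.03). Their sum ran from 103 to 138 CPM in Control, 111 to 123 at saline D27, 138 to 155 at saline D48, 49.4 to 82.1 at saline D100 and 23.2 to 63.3 in the APX3330 group, where the marker Mpo was at 0, as it was at saline D100. The neutrophil sum correlated with Hmox1 at r = 0.52 over the libraries and at 0.39 within groups. Its markers did not move as 1 set. Against Control, 1 was called higher and 1 lower at saline D100, beside 11.4% and 10.5% of all tested genes. With APX3330 1 was higher and 2 lower, beside 7.16% and 8.18%. The part of macrophage and neutrophil number in the Hmox1 differences was not tested. Goblet cell markers, likewise, stood apart in Control: the 6 markers, all detected in every group, summed to 9338 to 10356 CPM there, to 50042 to 62676 at saline D27, 25916 to 48875 at saline D48, 56439 to 80885 at saline D100 and 46276 to 76489 in the APX3330 group. Against Control, 6 were called higher at saline D27, 6 at saline D48, 4 at saline D100 and 4 with APX3330. Of all tested genes 10.2%, 14.3%, 11.4% and 7.16% were. The goblet markers did not move as 1 set between the other groups. In saline D100 against D48, 2 were higher and 2 lower, beside 7.20% and 6.40% of all genes. In APX3330 against saline D48, 1 was higher and 2 lower, beside 9.41% and 10.3%. Slc7a11, Gpx2 and Txn1 also had Control lowest. Over the 15 libraries the goblet sum correlated with Slc7a11 at r = 0.84, with Gpx2 at 0.69 and with Txn1 at 0.88, where the libraries share the separate position of Control, and within groups at 0.20, 0.49 and 0.52. The plasma cell sum, given above, was also lowest in Control. It correlated with the same 3 genes at r = 0.65, 0.63 and 0.82, and within groups at 0.10, 0.02 and 0.53. The part of goblet and plasma cells in these 3 genes was not tested. Smooth muscle markers ran the other way, at 9964 to 10233 CPM in Control and 4286 to 9693 CPM in the other groups.

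**Figure D2:**
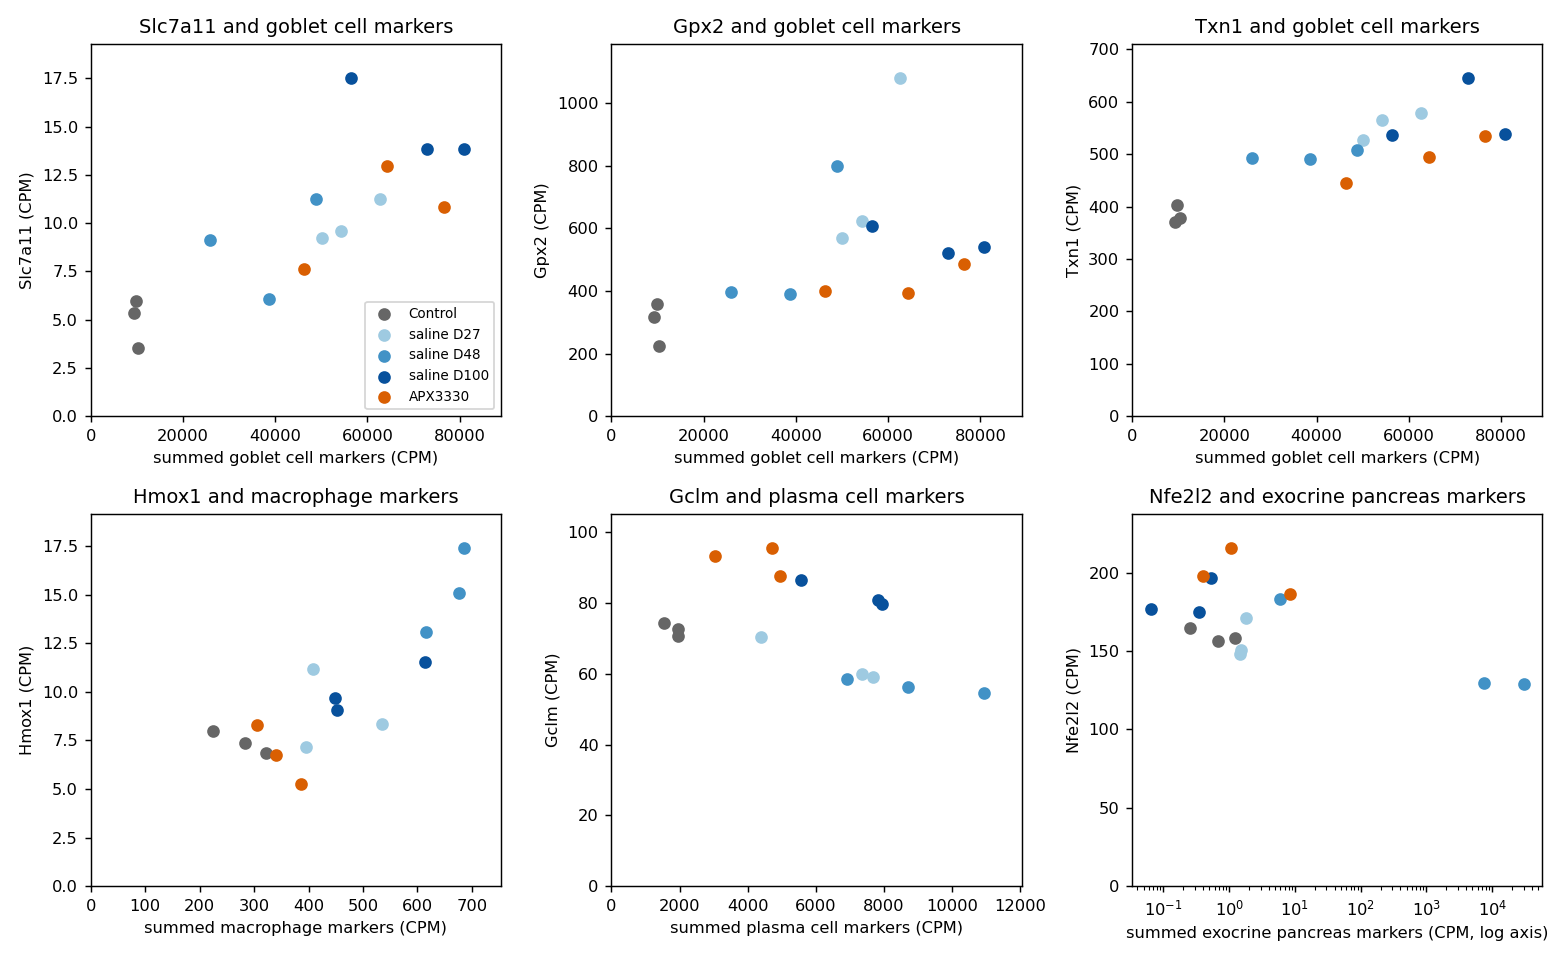
Each point is a library, coloured by group, with the summed CPM of a cell type's markers on the horizontal axis (log scale for exocrine pancreas) and a gene's CPM on the vertical axis. Control stands alone at the low end of the goblet sum with the lowest Slc7a11, Gpx2 and Txn1, the saline D48 libraries have the highest macrophage sums and Hmox1, and the saline D48 libraries with 30171 and 7380 CPM of pancreatic markers have the lowest Nfe2l2.

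By comparison, 3 of the 10 genes were called higher and 1 lower at saline D27 against Control, where 10.2% and 9.36% of all tested genes were called. At saline D48 against Control 4 were higher and 2 lower, beside 14.3% and 13.0% of all genes. At saline D100 against Control 3 were higher and 0 lower, beside 11.4% and 10.5%. APX3330 against Control had 3 higher and 0 lower, beside 7.16% and 8.18%. The median log2 difference of the 10 genes in these 4 comparisons was 0.14, 0.05, 0.20 and 0.25, while that of all tested genes lay within 0.02 of 0. These 4 comparisons share the Control libraries. With the squamous libraries left out, and 1 Control library remaining, none of the 10 genes was called in any of the 4, and of all 19535 genes then tested 210 were higher and 200 lower at saline D27, against 1833 and 1689 of 18038 with all libraries.

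APX3330 against saline D27 had 2 genes higher, Gclc and Gclm, and 0 lower, beside 4.71% and 4.37% of all genes. Against saline D48 it had 3 higher, Nfe2l2, Gclc and Gclm, and 1 lower, Hmox1, beside 9.41% and 10.3%. Against saline D100 none was called in either direction, beside 0.305% and 0.200% of all genes. At an unadjusted p below 0.05, 4 of the 10 genes differed between APX3330 and saline D100, and the alternatives called 0 throughout. The shares of all genes given here are at the adjusted threshold. The share at the unadjusted one was not computed, so the 4 genes cannot be set against it. Since the day of the APX3330 group is not given, a difference between it and a saline group may include a difference in day and in DSS cycles received. The 3 comparisons share the APX3330 libraries.

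Among the saline groups, day 48 against day 27 had no gene called, beside 0.854% higher and 0.499% lower of all genes. At an unadjusted p below 0.05 1 gene differed, a threshold at which the share of all genes was not computed. Both limma-voom and DESeq2 called Hmox1. Day 100 against day 27 had 1 gene higher, Gclm, and 0 lower, beside 1.63% and 1.45%. Day 100 against day 48 had Gclm and Nqo1 higher and 0 lower, beside 7.20% and 6.40%. Of the 40 steps between neighbouring group means over the 10 genes, 2 were called, Slc7a11 from Control to saline D48 and Txn1 from Control to APX3330. In 13 steps the libraries of the neighbours did not overlap. The share of such steps over all tested genes was not computed, so this count cannot show whether the 10 genes stand out.

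**Figure D3:**
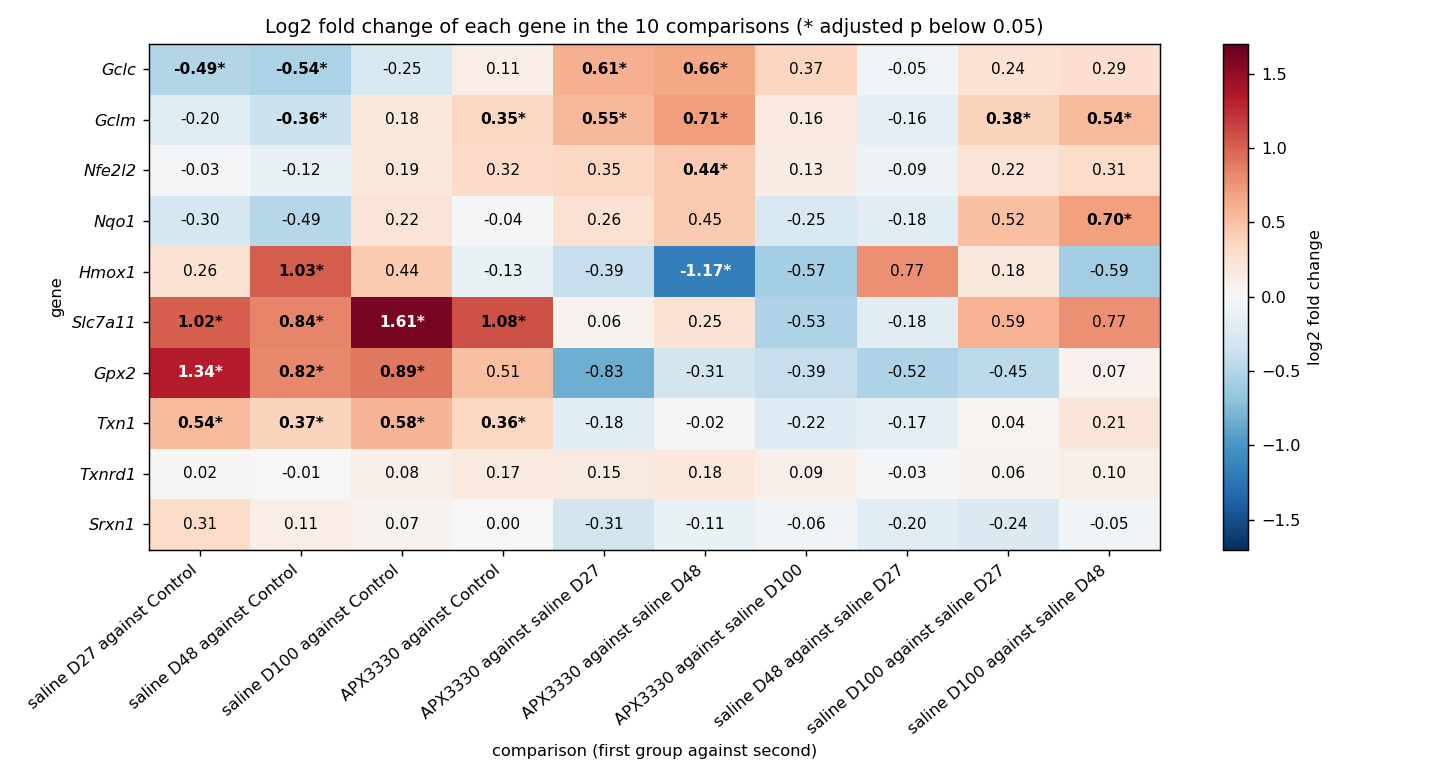
Log2 fold change (colour and printed value) of each of the 10 genes (rows) in the 10 comparisons (columns, first group against second); an asterisk and bold type mark an adjusted p below 0.05. The values against Control are positive for Slc7a11, Gpx2 and Txn1, APX3330 against saline D27 and D48 is positive for Gclc and Gclm, and the column APX3330 against saline D100 holds no call.

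Some of the genes varied together in 2 sets over the libraries as a whole. Over the 15 libraries Gclc and Gclm correlated at r = 0.79, Gclm and Nfe2l2 at 0.75 and Gclm and Nqo1 at 0.67. Slc7a11 and Txn1 correlated at 0.82, Gpx2 and Txn1 at 0.76 and Slc7a11 and Gpx2 at 0.71. Across the sets, Gclc and Txn1 stood at -0.50 and Gclm and Txn1 at -0.03. Hmox1 ran opposite to Gclc at -0.71. Nfe2l2 and Nqo1 stood at 0.49, below Txnrd1 with Gclc at 0.59, with Nfe2l2 at 0.55 and with Gclm at 0.53. Within groups the values largest in size were Gclc and Txnrd1 at 0.73, Nfe2l2 and Slc7a11 at -0.72 and Hmox1 and Gpx2 at -0.70. Slc7a11 and Gpx2 correlated there at 0.68, Gclc and Nqo1 at 0.67 and Txnrd1 and Gpx2 at 0.65. Gclc and Gclm correlated within groups at 0.36, Gclm and Nfe2l2 at -0.01 and Slc7a11 and Txn1 at 0.31. These are descriptions over 15 libraries that share 5 groups.

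The tested genes most like each member over the 15 libraries, by Pearson r of log2 CPM, were as follows. For Gclm they were Desi2 (0.95), Sypl (0.95) and Mtif2 (0.94), and for Gclc Lrig3 (0.94), Iars2 (0.93) and Farp1 (0.91). Nfe2l2 was nearest to Zcchc9 and Ahcyl2 (both 0.91) and Styk1 (0.90). Txn1 was nearest to Plaat3 (0.99), Sec11c (0.97) and the goblet cell marker Spink4 (0.95). Slc7a11 was nearest to Serp1 (0.93), Slc35b1 and Lpcat2 (both 0.92), and Gpx2 to Ssr2 (0.94), Aars (0.93) and Mydgf (0.92). Hmox1 was nearest to Saa3 and Rnf150 (both 0.90) and Rasgrp4 (0.89). Lower likeness was found for Nqo1, with Ssx2ip (0.85), Tent4a and Mrpl1 (both 0.83), for Txnrd1, with Slc13a2os (0.86), Itsn1 and Nmnat1 (both 0.80), and for Srxn1, with Actn4 (0.84), Tubb4b (0.83) and Ms4a8a (0.81).

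Beside the 10 genes, 94 genes on 8 lists of related function were read in the same fit, of which 93 were tested. In all, 6 rose and 20 fell at saline D27 against Control, where 10.2% and 9.36% of all tested genes did. At saline D48 12 rose and 24 fell (14.3% and 13.0% of all genes), at saline D100 6 rose and 14 fell (11.4% and 10.5%), and with APX3330 4 rose and 11 fell (7.16% and 8.18%). With the squamous libraries left out these counts against Control became 0 and 2, 3 and 10, 2 and 6, and 0 and 2, and without the pancreatic ones those at saline D48 became 4 and 8. APX3330 against saline D48 had 20 higher and 10 lower, beside 9.41% and 10.3% of all genes, and 5 and 5 without the pancreatic libraries. APX3330 against saline D100 had 0 in either direction, beside 0.305% and 0.200%. Over the 5 groups 43 of the 93 passed the F test, beside 37.3% of all tested genes.

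Of the 18 genes for quinone, carbonyl and conjugate handling, which are the classical enzymes around Nqo1, none rose and 7 fell at saline D27, 8 fell at saline D48, 2 fell at saline D100 and 1 fell with APX3330, all against Control. Of all tested genes 10.2%, 14.3%, 11.4% and 7.16% rose and 9.36%, 13.0%, 10.5% and 8.18% fell in these comparisons. The median log2 difference of the list was -0.32, -0.45, -0.22 and -0.03 in that order. APX3330 against saline D48 had 8 higher and 0 lower, beside 9.41% and 10.3% of all tested genes, with a median of 0.21. Gstm1, a glutathione transferase, had means of 271 ± 6.31 CPM (SD, n = 3) in Control, 190.3 ± 11.0 at saline D27, 123 ± 34.6 at saline D48, 206 ± 26.1 at saline D100 and 265 ± 9.04 in the APX3330 group. It fell by 1.14 at saline D48 against Control (SE 0.148, adjusted p = 9.8e-05), and APX3330 exceeded saline D48 by 1.11 (SE 0.148, adjusted p = 0.000285). The carbonyl reductase Cbr1 followed the same order of these 3 groups, at 210.0, 123 and 203 CPM in Control, saline D48 and APX3330. Aldh1a1, a retinaldehyde dehydrogenase, stood at 51.2, 22.5 and 39.0 CPM in them. In saline D48 replicates 1 to 3, Gstm1 was at 162, 108 and 98.1 CPM. Cbr1 was at 143, 123 and 104 CPM in the same libraries, and Aldh1a1 at 27.5, 21.0 and 19.0. The lower values of each gene were thus in the libraries with pancreatic markers. Fewer genes of the list were called without the pancreatic libraries, which leaves 1 saline D48 library. The same held without the squamous ones, which leaves 1 Control library and where fewer of all genes were called too. In that fit the median log2 difference of the list against Control was -0.29 at saline D27 and -0.45 at saline D48.

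Among the 15 NRF2 regulators and partners, 4 passed the F test, where 37.3% of all tested genes did. Cul3, the scaffold of the ligase that degrades NRF2, fell by 0.53 at saline D27 (SE 0.0899, adjusted p = 0.00126) and by 0.46 at saline D48 (SE 0.0898, adjusted p = 0.00176) against Control, and was higher with APX3330 than at saline D48 by 0.46 (SE 0.0898, adjusted p = 0.00277). Bach1, a repressor that competes at antioxidant response elements, was higher with APX3330 than at saline D48 by 0.51 (SE 0.151, adjusted p = 0.0272). Without the pancreatic libraries the Cul3 differences at saline D48 were -0.43 against Control (adjusted p = 0.0645) and 0.44 for APX3330 (0.0803), and that of Bach1 was 0.41 (0.321), none called. Fbxw11, part of a second ligase for NRF2, stood at 129 ± 6.41 CPM in Control and 106 ± 0.887 at saline D27. Of the 15 genes for glutathione synthesis and use, 4 rose and 3 fell at saline D48 against Control, beside 14.3% and 13.0% of all tested genes. The extracellular peroxidase Gpx3 was higher at saline D48 than in Control by 0.77 (SE 0.129, adjusted p = 0.000556). Fewer genes of the list were called at saline D48 against Control without the squamous libraries, which leaves 1 Control library. Without them the list median was 0.23 on the log2 scale, against 0.19 with all libraries. Fewer were also called without the pancreatic libraries, which leaves 1 saline D48 library. Gpx3 stood at 0.67 without the squamous libraries and at 0.53 without the pancreatic ones, and was called in neither fit. Ggt1, which cleaves glutathione outside cells, was read at 2.98, 19.3 and 9.06 CPM in saline D48 replicates 1 to 3, with the high values in the libraries with pancreatic markers.

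The thioredoxin and peroxiredoxin list of 14 had 1 gene higher and 3 lower at saline D27 against Control, and 1 and 4 at saline D48. It had 0 and 2 at saline D100 and 0 and 3 with APX3330. Shares of all tested genes in these 4 comparisons were 10.2% and 9.36%, 14.3% and 13.0%, 11.4% and 10.5%, and 7.16% and 8.18%. Prdx6, a peroxiredoxin that reduces lipid peroxides, fell in all 4, from 3838 ± 90.6 CPM in Control to 1088 ± 132 at saline D100, where the difference was -1.82 (SE 0.221, adjusted p = 5.6e-05). Txnip, the protein that binds and blocks thioredoxin, also fell in all 4, by 0.48 to 0.83 on the log2 scale, while Txn1 rose. With the squamous libraries left out, Prdx6 was called only at saline D100 (-1.93, adjusted p = 0.00776), against -1.04 (0.0994), -1.03 (0.0680) and -1.08 (0.106) at saline D27, at saline D48 and with APX3330. Txnip was then called only at saline D48 (-0.80, 0.0394), with -0.45 (0.273), -0.56 (0.188) and -0.55 (0.215) at saline D27, at saline D100 and with APX3330. Without the pancreatic libraries Prdx6 at saline D48 was -0.78 (0.125). Of the 7 genes that supply NADPH, Tkt, the transketolase, was higher than Control in the 3 saline groups by 0.44, 0.45 and 0.41, and did not pass the F test over groups. Tkt was called in none of the 3 without the squamous libraries (adjusted p = 0.263, 0.196 and 0.364). Idh1 was higher with APX3330 than at saline D48 by 0.40, and Me1, the malic enzyme, higher at saline D100 than at saline D48 by 1.46, which was not called without the pancreatic libraries (1.49, adjusted p = 0.0882), nor was Tkt at saline D48 (0.41, 0.189). Among the 5 superoxide and catalase enzymes, extracellular Sod3 stood at 84.9 ± 7.18 CPM at saline D48 against 43.5 ± 4.26 in Control and 35.0 ± 5.41 with APX3330, and Cat was lower than Control at saline D27 by a difference of -0.39, which was not called without the squamous libraries (-0.34, adjusted p = 0.213).

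Of the 11 tested genes of heme and iron handling, Fth1, the ferritin heavy chain, fell at saline D27, at saline D100 and with APX3330 against Control, by 0.43, 0.64 and 0.56. At saline D48, where Hmox1 was highest, Fth1 differed from Control by -0.11 (adjusted p = 0.361). The iron exporter Slc40a1 fell in the 3 saline groups, by 1.07, 0.98 and 1.55, while with APX3330 it differed by -0.58 (adjusted p = 0.104), and the transferrin receptor Tfrc rose at saline D100 by 0.79 and with APX3330 by 0.82. With the squamous libraries left out, the calls of Fth1 and Slc40a1 at saline D100 held (-0.69, adjusted p = 0.0204, and -1.64, 0.0271). Those of Fth1 at saline D27 (0.116) and with APX3330 (0.0584), of Slc40a1 at saline D27 (0.104) and saline D48 (0.0912) and of Tfrc at saline D100 (0.0759) and with APX3330 (0.0988) did not. Slc40a1 at saline D48 was also not called without the pancreatic libraries (-0.78, 0.175). The list of 8 for the amino acid stress response and ferroptosis had 3, 3, 4 and 3 genes higher and 2 lower in each of the 4 comparisons with Control. Of all tested genes 10.2%, 14.3%, 11.4% and 7.16% were higher and 9.36%, 13.0%, 10.5% and 8.18% lower in these 4 comparisons. Atf4, the transcription factor of that response and a known inducer of Slc7a11, was higher in all 4, by 0.57, 0.33, 0.68 and 0.55. Ddit4, a stress-induced inhibitor of mTOR, was lower with APX3330 than at saline D48 by a difference of -1.10. In saline D48 replicates 1 to 3 it stood at 98.8, 137 and 139 CPM, against 56.4 to 60.9 with APX3330. The higher saline D48 values were in the libraries with pancreatic markers. Aifm2, which protects membranes from lipid peroxidation, was lower in all 4 comparisons with Control, by a difference of -0.94 to -1.23. With the squamous libraries left out, which leaves 1 Control library, fewer genes of the list were called against Control. Its median log2 difference was then 0.49 at saline D27 and 0.42 with APX3330, against 0.34 and 0.22 with all libraries. Atf4 was then called only at saline D100 (0.72, adjusted p = 0.0283), with 0.57 (0.0792), 0.32 (0.224) and 0.56 (0.0948) at saline D27, at saline D48 and with APX3330, and Aifm2 only at saline D48 (-0.87, 0.0426) and saline D100 (-1.06, 0.0304). Without the pancreatic libraries Atf4 at saline D48 was 0.38 (0.115).

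**Figure D4:**
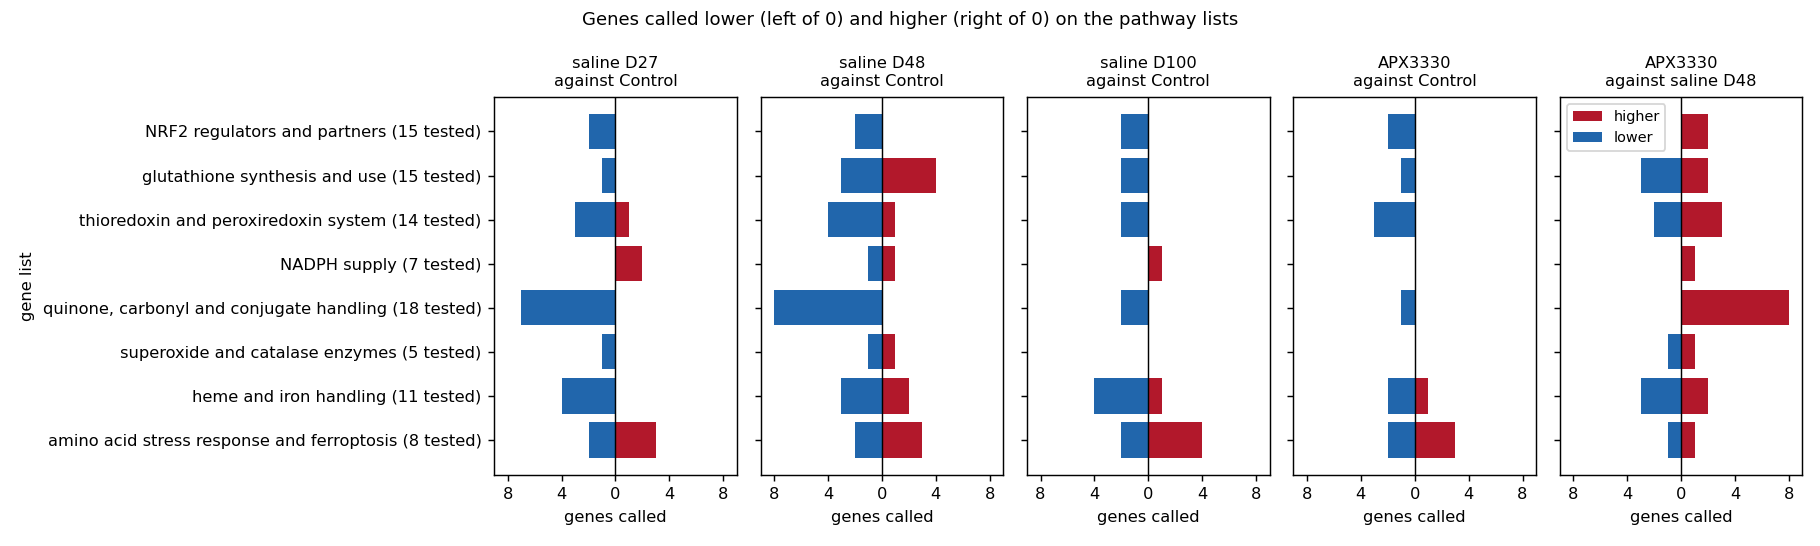
Number of genes called on each of the 8 lists (rows) in 5 comparisons (panels); bars to the right count genes called higher and bars to the left genes called lower in the first group, at an adjusted p below 0.05. The list for quinone, carbonyl and conjugate handling has 8 lower genes at saline D48 against Control and 8 higher genes with APX3330 against saline D48.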

How the data were processed

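The authors deposited 1 table of whole-number read counts per gene for 15 colon libraries. Per the labels' protocols, a column kit was used for RNA and a SMARTER mRNA-Seq kit for libraries. The submitters' processing notes name 2 builds, GRCm38 and mm10. How reads were aligned and counted, and whether strand was used, is not given in the sources used here, so reads of a gene and an antisense or near-identical neighbour may be mixed.

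The deposited counts were fitted in 1 edgeR 4.0.16 quasi-likelihood model of all 15 libraries (R 4.3.3) with a term for group, TMM scaling and filterByExpr, which kept 18038 of 56859 genes; 23552 had no count. Benjamini-Hochberg adjustment ran over all tested genes and a gene was called at an adjusted p below 0.05. SE is the log2 fold change divided by the square root of the F statistic. CPM is the count scaled to library size with TMM, and levels per kb use GENCODE M21 exon unions on GRCm38. The fit was tested on simulated data. Every pair of libraries within a group varied beyond counting error, so neither was the same library merely sequenced again. This check cannot tell separate mice from separate preparations of the same mouse or RNA. Pairs from different groups were not part of it.

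The 10 genes, the 8 functional lists and the marker lists were chosen with earlier results of these data known. Genes named in the text come from the 10 members, the 3 genes of each list with the smallest F test p, the 3 genes most correlated with each member, and Apex1; 1 gene under this rule is not reported here. Alternatives were DESeq2 1.42.0, its size factors, limma-voom (limma 3.58.1), no filter, a replicate block, fits of 2 groups, a fold minimum and leaving out libraries. For the functional lists and their named genes, leaving out libraries was added after seeing the data. Promoter windows are RefSeq's on GRCm38.p6. Plots used Python 3.11.15 and matplotlib 3.10.9.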

Additional observations from a re-analysis of the deposited data

How the results depend on the processing

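For 25 calls of a gene in a comparison, 331 alternative values were computed, of which 268 kept the call, 63 lost it and 0 reversed. 5 of the 25 were kept in every alternative fit: Gclc and Gclm in APX3330 against saline D27, Hmox1 and Gclm in APX3330 against saline D48, and Gclm in saline D100 against saline D48. A minimum difference of 1 on the log2 scale, which is not among the 331 values, keeps Hmox1 alone of the 5. With squamous libraries left out (1 Control library remaining, assumed to vary like the other groups), 0 of the genes were called at saline D27, D48, D100 or APX3330 against Control, 0 in saline D100 against D27, 1 in saline D100 against D48 and 3 by the F test. Without the pancreatic libraries 1 was called at saline D48 against Control, 2 in APX3330 against saline D48 and 1 in saline D100 against D48. A minimum of 1 on the log2 scale left 2, 1, 1 and 1 calls against Control, 0 and 1 for APX3330 against saline D27 and D48, and 0 for saline D100 against D27 and against D48. For saline D48 against D27, no filter gave 2 calls and limma-voom and DESeq2 1 each. For saline D100 against D27, no filter and the fit of 2 groups gave 0 and limma-voom 2. For saline D100 against D48, limma-voom and DESeq2 gave 4. The causes of these changes were not tested. The fits without the squamous or the pancreatic libraries and the fit of 2 groups also held fewer libraries than the main fit.

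Leaving out 1 library at a time gave 3 to 5 calls at saline D27, 4 to 7 at saline D48, 2 to 3 at saline D100 and 1 to 3 with APX3330, all against Control. The lowest of the last came without Control replicate 1 or APX3330 replicate 2. It gave 2 to 3 for APX3330 against saline D27, 3 to 4 against saline D48 and 0 to 0 against saline D100, 0 to 0 for saline D48 against D27, 0 to 1 for saline D100 against D27, 1 to 3 for saline D100 against D48 (lowest without saline D100 replicate 1 or 2) and 6 to 8 by the F test. The replicate numbers did not pair the libraries: same-numbered libraries of different groups had a median correlation of deviations of -0.015 (2 of 30 pairs over 0.1), and 3 of 15 libraries correlated best with their own number. With the replicate block, saline D100 against D48 had 4 calls, adding Hmox1 and Slc7a11, and the F test had 7. DESeq2 size factors moved the median log2 difference of all genes to at most 0.015 in size. Depth limits Slc7a11 most, with a counting error of up to 13.5% per library.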
